A study of Homo sapiens with 9 samples.

Results

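The 10 genes described here encode chemokines and cytokines that intestinal epithelial cells can make: CXCL8, CXCL1, CXCL2, CXCL3, CXCL16, CCL20, IL1A, IL18, IL32 and LIF. They were taken by symbol from the 60591 gene symbols of the deposited count table, and all 10 were found in it. RNA was sequenced from undifferentiated cells of the human colon adenocarcinoma line Caco-2 (uCaco-2), in 3 groups of 3 libraries each. Control cells received the solvent, 0.5% DMSO. CoCl2 cells received 300 μM cobalt(II) chloride with the same DMSO, and OD cells received 5 μM of the oxyquinoline derivative 4896-3212 in the same final DMSO concentration. Treatment lasted 24 h in all 3 groups. The groups share 1 cell line, so the replicates carry no variation between donors. The 2 agents were used at different molar doses, so the CoCl2 and OD groups are set side by side and are not a comparison at matched dose.

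CXCL8 (interleukin-8), CXCL1, CXCL2 and CXCL3 are small secreted CXC chemokines that attract neutrophils through the receptors CXCR1 and CXCR2. CCL20 attracts CCR6-bearing dendritic cells and lymphocytes to mucosal epithelium, and CXCL16 is made as a transmembrane protein that is shed and binds CXCR6. IL-1α (gene IL1A) and IL-18 belong to the IL-1 family. The IL-1α precursor is active when damaged cells release it, whereas the IL-18 precursor, stored in epithelium, needs cleavage by an inflammatory caspase. IL-32 is an intracellular and secreted cytokine outside the IL-1 family by sequence, and LIF signals through its own receptor and gp130. CoCl2 and oxyquinolines are both used to stabilise hypoxia-inducible factor (HIF), the transcription factor that is degraded when oxygen is plentiful.

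The start regions of the chemokine genes and IL1A are shown first, because the chemokine genes share binding words and CXCL1, CXCL2 and CXCL3 have closely similar start regions. RefSeq promoter windows (GRCh38.p14, 250 bases before to 50 after each start) were matched for 7 of the 10 members, and CXCL16, IL18 and LIF had none. The 130 bases directly before the RefSeq start are printed 5′ to 3′ on the gene's strand, and positions below count from that start. It can differ from the end of the GENCODE gene span given further on. By those spans the stretches of CXCL8, CXCL2 and CXCL3 lie partly inside the gene, and that of CCL20 lies wholly inside. They cover chr4:73740439-73740568 on the plus strand for CXCL8 and chr4:73869263-73869392 on the plus strand for CXCL1. They cover chr4:74099196-74099325 on the minus strand for CXCL2 and chr4:74038690-74038819 on the minus strand for CXCL3. The stretch for CCL20 is chr2:227813712-227813841 on the plus strand, and that for IL1A is chr2:112784494-112784623 on the minus strand. Capitals mark matches, on either strand, to GGNNTTTCC, a form of the NF-κB binding word, and to TGANTCA, the AP-1 word.
CXCL8: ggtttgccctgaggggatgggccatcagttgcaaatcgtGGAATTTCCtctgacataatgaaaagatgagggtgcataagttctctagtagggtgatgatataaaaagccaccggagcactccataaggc
CXCL1: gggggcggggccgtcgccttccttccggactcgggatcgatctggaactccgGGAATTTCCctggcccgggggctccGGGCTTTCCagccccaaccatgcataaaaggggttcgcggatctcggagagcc
CXCL2: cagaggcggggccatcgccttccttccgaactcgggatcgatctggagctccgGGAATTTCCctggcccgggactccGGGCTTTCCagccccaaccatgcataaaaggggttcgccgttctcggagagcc
CXCL3: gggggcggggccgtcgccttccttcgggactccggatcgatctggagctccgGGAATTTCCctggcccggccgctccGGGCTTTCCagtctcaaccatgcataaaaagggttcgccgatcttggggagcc
CCL20: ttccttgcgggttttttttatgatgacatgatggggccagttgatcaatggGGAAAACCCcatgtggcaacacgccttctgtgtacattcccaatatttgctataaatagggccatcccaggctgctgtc
IL1A: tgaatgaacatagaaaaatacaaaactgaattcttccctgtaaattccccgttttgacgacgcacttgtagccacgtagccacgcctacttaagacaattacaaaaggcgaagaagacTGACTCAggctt

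The capitals show the same pair of NF-κB words, GGAATTTCC and GGGCTTTCC, in CXCL1, CXCL2 and CXCL3. The 250 bases before the start were 84.2% identical between CXCL1 and CXCL2, 86.4% between CXCL1 and CXCL3 and 83.3% between CXCL2 and CXCL3. CXCL8 holds GGAATTTCC at −91 from its start and, outside the printed stretch, TGACTCA at −137. In CCL20 the word lies on the opposite strand as GGGTTTTCC at −79. IL1A has no match to GGNNTTTCC in either of its 2 windows. The first, whose stretch is printed, has TGACTCA at −12 and TGAGTCA at 39. In the second these words lie at −105 and −55. IL32, whose stretch is not printed, has GGAGTTTCC at −98 and GGACTTTCC at −68 of the first of its 2 windows. Of 35116 RefSeq promoter windows of 300 bases, 6.26% hold GGNNTTTCC and 7.71% hold TGANTCA on either strand. The HIF core words ACGTG and GCGTG were matched in 21.4% and 36.5% of the windows. IL1A holds ACGTG at −58 and GCGTG at −50 of its first window, both on the opposite strand. In its second window they lie at −151 and −143. CCL20 holds GCGTG at −60 on the opposite strand. The second IL32 window holds GCGTG at −235 on the opposite strand and at −139 on the gene's strand. TGACNNNGC, a core word of NRF2 binding, was in 13.3% of windows. It matched IL1A as TGACGACGC, at −76 of the first window and −169 of the second. In the second IL32 window it matched as TGACCCAGC at −111 on the opposite strand. A base may be counted in matches of more than 1 word. These matches describe letters and do not show that a factor binds.

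In brief, CXCL8 and IL1A were higher in CoCl2-treated cells than in controls, and CCL20 was lower. IL1A was also higher in OD-treated cells, at 0.239 of its level in CoCl2 cells. IL18 had 1.85 times its control level in OD-treated cells, which missed the limit set for the size of a change. CXCL16, IL32, LIF and CXCL3 were not called in any of the 3 comparisons, apart from CXCL16 when libraries were scaled by their size alone. Expression was given as CPM, the counts in a library scaled to a common normalised total. Comparisons used edgeR's quasi-likelihood test on the counts of all 9 libraries, with Benjamini-Hochberg adjustment over the 15944 genes that passed the filter on low counts. A gene was called higher or lower when its adjusted p was under 0.05 and its log2 fold change was beyond 1 in size, and "rose" and "fell" are used for called genes alone. The libraries held 15998136 to 24209427 counts. All 9 libraries were kept.

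These counts stood on a broad shift of the transcriptome. With CoCl2, 19.9% of tested genes were called higher and 23.4% lower than in controls. With OD, 9.09% were called higher and 4.16% lower. Between CoCl2 and OD, 17.5% were higher in CoCl2 cells and 23.8% were lower. At an adjusted p under 0.05 and any fold, the shares were 83.2% for CoCl2 against control, 65.6% for OD against control and 83.5% for CoCl2 against OD. The scaling factors that correct for RNA composition were 0.770 to 0.795 in CoCl2 libraries, 1.11 to 1.12 in control and 1.14 to 1.15 in OD libraries. Without them the median log2 difference of all genes between CoCl2 and control moved from −0.049 to −0.55, and that between CoCl2 and OD from −0.054 to −0.60. Higher calls were then 23.9% instead of 46.0% of all calls with CoCl2, and 18.3% instead of 42.4% for CoCl2 against OD. Every difference below is relative to this scaling.

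Epithelial markers were checked against the label. Of 10, 9 passed the filter, CDX1 was at 0 counts in all libraries, and their summed level was 10290 to 10766 CPM in control, 12151 to 13035 in CoCl2 and 9883 to 10404 in OD libraries. KRT8 and KRT18, keratins of simple epithelium, made up most of this sum. VIL1 (villin of the microvilli) fell with CoCl2 from 612.7 to 112.2 CPM (log2 −2.45, edgeR adjusted p = 1.24e-51) and was at 454.4 CPM with OD. KRT20 fell with CoCl2 (log2 −1.44, edgeR adjusted p = 2.70e-09) and LGALS4 rose (1.66, edgeR adjusted p = 0.0360), so that 1 marker was higher and 2 were lower with CoCl2. LGALS4 was sparse, with 5 to 33 counts per library. It stood at 0.337 ± 0.129 CPM in control and 1.19 ± 1.19 CPM in CoCl2 cells, an uneven rise. The part of these shifts in the results was not tested. Of 10 leukocyte markers 4 passed (CD14, LYZ, ITGAM and CSF1R), with a sum of 42.2 to 48.6 CPM in control, 63.2 to 68.8 in CoCl2 and 55.4 to 59.3 in OD libraries. HLA-DRA, FCGR3A and MPO were at 0 in all 9 libraries, and PTPRC had 0 to 3 counts. With OD, CSF1R rose (log2 2.08) and CD14 fell (−1.08), and with CoCl2 no leukocyte marker was called. The sums were 109 to 118, 101 to 103 and 87.4 to 92.7 CPM for 8 fibroblast markers in the same order of groups, and 2.94 to 3.39, 2.62 to 3.25 and 3.09 to 3.54 CPM for 6 endothelial markers. The calls against control in these lists were PDGFRB lower (log2 −2.31) and VWF higher (1.61) with CoCl2, and LUM higher (1.78) with OD. In such bulk samples, fewer expressing cells and less RNA per cell cannot be told apart.

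The members spanned a wide range of levels. Per kilobase of exon, IL32 was the highest member in control cells at 35.2 ± 2.51 CPM per kb (SD, n = 3), followed by CXCL16 at 17.2 ± 0.294 and IL18 at 9.49 ± 1.04. CCL20, at 5.16 ± 0.745 CPM per kb, and LIF, at 4.95 ± 0.192, came next, and their libraries overlapped. The 4 neutrophil chemokines and IL1A were far lower. CXCL3 stood at 0.931 ± 0.102 CPM per kb and CXCL2 at 0.563 ± 0.105. CXCL1 (0.116 ± 0.0332), CXCL8 (0.0746 ± 0.00912) and IL1A (0.0506 ± 0.0404) closed the order, and neighbours among these 3 overlapped. In CoCl2 cells the top of the order was the same up to IL18, and LIF (4.53 CPM per kb) then stood above CCL20 (1.4998). IL1A (1.13 CPM per kb), CXCL3 (1.03), CXCL8 (0.680) and CXCL2 (0.660) followed CCL20, with each overlapping the next, and CXCL1 was last at 0.208. In OD cells IL18 reached 17.6 CPM per kb, below CXCL16 at 20.6 and above LIF at 5.05, whose libraries overlapped those of CCL20 at 4.70. IL1A was then eighth at 0.267 CPM per kb, below CXCL2 at 0.305 and above CXCL8 at 0.107.

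**Figure D1:**
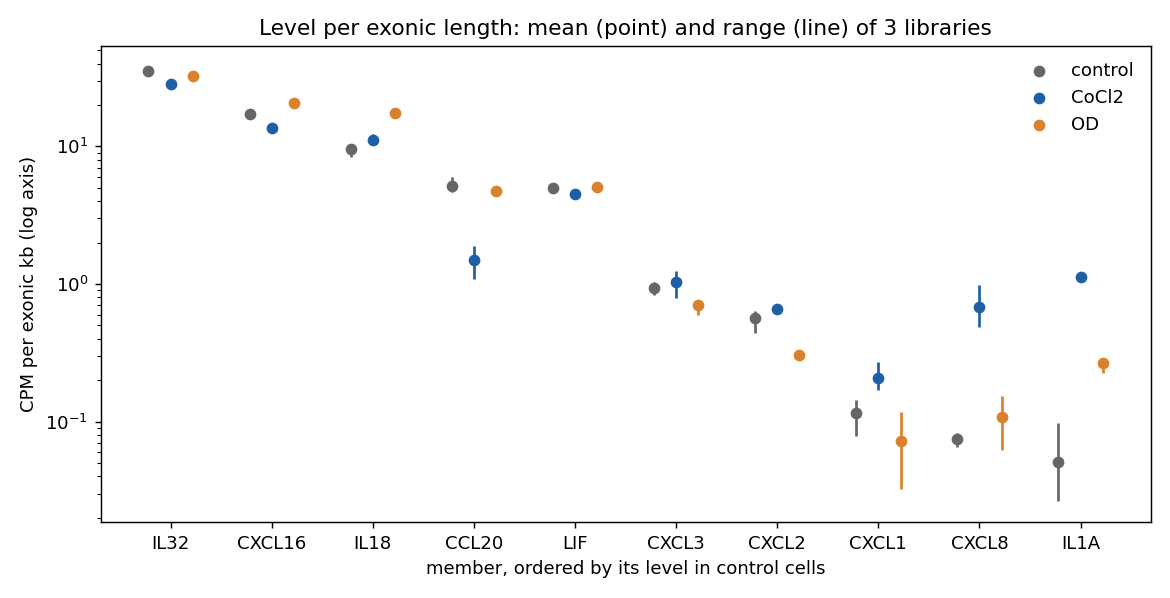
Level of each of the 10 members in CPM per exonic kilobase on a log axis, ordered by control level, with the mean as a point and the range of 3 libraries as a line for control (grey), CoCl2 (blue) and OD (orange). IL1A and CXCL8 move up with CoCl2, from 0.0506 to 1.13 and from 0.0746 to 0.680 CPM per kb, and CCL20 moves down from 5.16 to 1.4998.

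CXCL8 lies at chr4:73740519-73743716 on the plus strand (GRCh38). It had 4, 4 and 3 counts in the control libraries (replicates 1 to 3), 41, 19 and 24 in the CoCl2 libraries and 6, 9 and 3 in the OD libraries. All CoCl2 libraries were above all others, and the control and OD libraries overlapped. The mean level was 0.193 ± 0.0236 CPM in control (SD, n = 3), 1.76 ± 0.693 in CoCl2 and 0.277 ± 0.120 in OD cells. The first CoCl2 library, at 2.55 CPM, was above the other two at 1.47 and 1.26 CPM. CXCL8 rose 8.78-fold with CoCl2 (log2 fold change 3.13, SE 0.396, edgeR adjusted p = 1.30e-10). The control libraries together held 11 counts, and the ratio of summed counts per effective library size was 9.03 with a 95% interval of 4.80 to 18.8 that covers counting error only. With OD the log2 difference from control was 0.54 (SE 0.566, edgeR adjusted p = 0.414), with a 95% interval of −0.57 to 1.65, an interval that does not exclude a change past the size limit. CoCl2 cells had 6.05 times the level of OD cells (log2 2.60, SE 0.354, edgeR adjusted p = 1.24e-09). CXCL8 passed the low-count filter through its 3 CoCl2 libraries, none of the other 6 reaching the 0.547 CPM that the filter asks of 3 libraries. Its presence among the tested genes was thus tied to the group in which it was high.

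**Figure D2:**
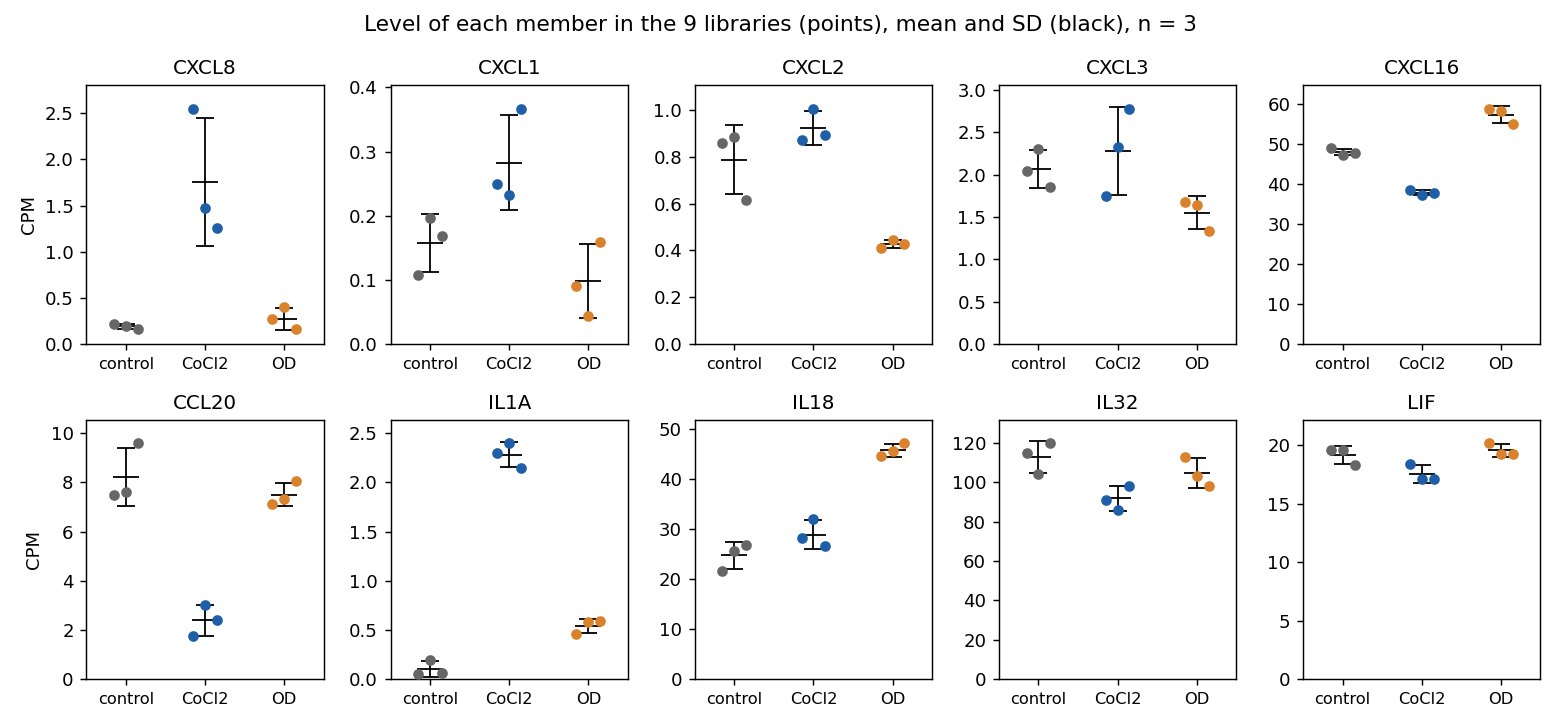
CPM of each member in every library (points), with the mean and SD of 3 libraries in black, for control (grey), CoCl2 (blue) and OD (orange), each panel on its own linear axis from 0. The CoCl2 libraries of CXCL8 and IL1A lie above all others, those of CCL20 lie below all others at 1.74 to 3.02 CPM, and the OD libraries of IL18 lie at 44.6 to 47.2 CPM, above both other groups.

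The other 3 neutrophil chemokines lie on the same arm of chromosome 4: CXCL1 at chr4:73869393-73871308 on the plus strand, CXCL3 at chr4:74036589-74038807 and CXCL2 at chr4:74097040-74099196, both on the minus strand. CXCL1 had 2, 4 and 3 counts in control, 4, 3 and 7 in CoCl2 and 2, 1 and 3 in OD libraries. It did not pass the filter. Its CoCl2 libraries (0.283 ± 0.0736 CPM) did not overlap the control (0.157 ± 0.0453) or OD libraries (0.0983 ± 0.0580), but 14, 9 and 6 counts per group leave the count ratio of CoCl2 to control between 0.741 and 4.82 (95% interval). Tested without a filter, its log2 differences were 0.78 for CoCl2 and −0.70 for OD against control, and 1.48 for CoCl2 against OD, with edgeR adjusted p of 0.419, 0.586 and 0.101.

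CXCL2 had 16, 18 and 11 counts in control, 14, 13 and 17 in CoCl2 and 9, 10 and 8 in OD libraries. The OD libraries, at 0.409 to 0.444 CPM, were below all others, and the control and CoCl2 libraries overlapped. Means were 0.787 ± 0.147, 0.923 ± 0.0728 and 0.426 ± 0.0176 CPM in control, CoCl2 and OD cells. The OD level was 0.542 of control (log2 −0.88, SE 0.350, edgeR adjusted p = 0.0236), which did not reach the size limit. By DESeq2 this difference had an adjusted p of 0.183 on the 6 libraries compared and 0.152 on all 9. Left without control replicate 3, the lowest control library, the difference was −1.02 on the log2 scale (edgeR adjusted p = 0.0177) and CXCL2 was called lower with OD. CoCl2 cells had 2.13 times the level of OD cells (log2 1.09, SE 0.352, edgeR adjusted p = 0.00385), a call that rests on 44 against 27 counts. It was not kept by DESeq2 on the 6 libraries (log2 1.09, adjusted p = 0.0797), by upper-quartile scaling (0.96) or by library size alone (0.55). Against control the CoCl2 log2 difference was 0.21 (SE 0.316, edgeR adjusted p = 0.540), and −0.29 by library size alone.

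CXCL3, the most abundant of the 4 per length, had 38, 47 and 33 counts in control, 28, 30 and 53 in CoCl2 and 37, 37 and 25 in OD libraries. Means were 2.07 ± 0.227, 2.28 ± 0.520 and 1.55 ± 0.192 CPM. The OD libraries lay below all control and CoCl2 libraries, and these overlapped each other. No comparison was called. The log2 differences were 0.15 for CoCl2 (SE 0.207, edgeR adjusted p = 0.502) and −0.41 for OD (SE 0.212, edgeR adjusted p = 0.0848) against control, and 0.56 for CoCl2 against OD (SE 0.215, edgeR adjusted p = 0.0147). By DESeq2 the difference of CoCl2 against OD had an adjusted p of 0.165 on the 6 libraries compared and 0.106 on all 9. The value for CoCl2 against control was −0.048 without CoCl2 replicate 3, its highest library, and −0.35 by library size alone. The interval for CoCl2 against control, −0.26 to 0.56, holds differences of under 1.5-fold. CXCL2 and CXCL3 transcripts share 108 of the 75-base stretches that equal the read length, which is 7.35% of those of CXCL2 and 4.57% of those of CXCL3. Reads from such stretches cannot be assigned to 1 gene, and the handling of reads with several alignments was not given in the sources used here. CXCL8 shares no such stretch with another gene.

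Within 358.7 kb, these 4 genes lie with 5 further CXC chemokine genes. CXCL6, PF4V1 and PF4 had 0 counts in all 9 libraries. Another gene on the same strand overlaps 52.1% of the exonic bases of PF4 and 34.7% of those of PPBP. PPBP had 1, 7 and 20 counts over the 3 libraries of control, CoCl2 and OD cells, and CXCL5 had 1, 0 and 6. Per length, CXCL3 and CXCL2 at the far end were the highest of the 4 members in control and OD cells, and with CoCl2 the level of CXCL8 at the other end (0.680 CPM per kb) overlapped that of CXCL2 (0.660).

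**Figure D3:**
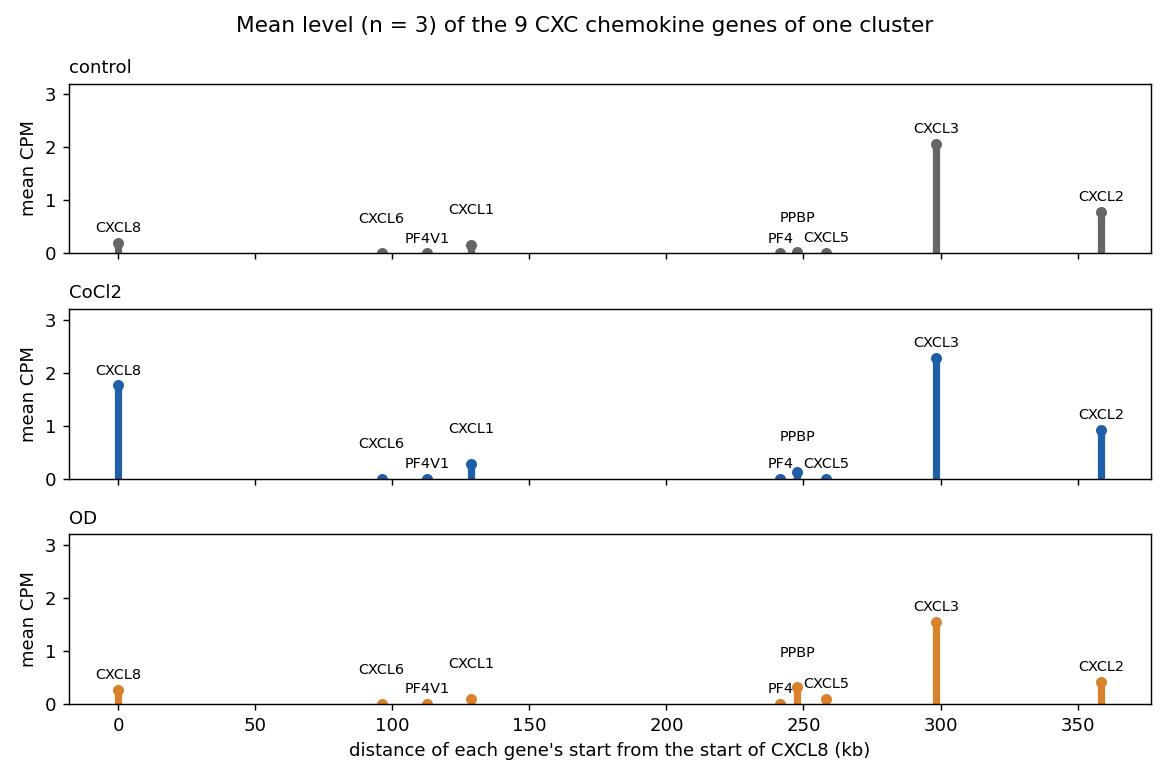
Mean CPM of 3 libraries for 9 CXC chemokine genes, against the distance of each gene's start from that of CXCL8 in kb, in control (top), CoCl2 (middle) and OD cells (bottom). CXCL8, at 0 kb, stands at 0.193, 1.76 and 0.277 CPM, whereas CXCL3, at 298.3 kb, stands at 2.07, 2.28 and 1.55 CPM.

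CCL20 lies at chr2:227805739-227817564 on the plus strand. Its level was 7.48, 7.60 and 9.59 CPM in the control libraries, 1.74, 3.02 and 2.41 CPM in the CoCl2 libraries and 7.13, 7.32 and 8.04 CPM in the OD libraries. All CoCl2 libraries were below all others, and control and OD libraries overlapped. The counts were 139 to 171 per control library, 28 to 46 per CoCl2 library and 151 to 165 per OD library. CCL20 fell with CoCl2 to 0.288 of its control level (log2 −1.80, SE 0.154, edgeR adjusted p = 9.69e-17). It was likewise lower in CoCl2 than in OD cells (log2 −1.66, SE 0.154, edgeR adjusted p = 2.41e-15). OD and control cells differed by −0.13 on the log2 scale (SE 0.113, edgeR adjusted p = 0.309), with an interval of −0.35 to 0.090. The CoCl2 values ranged from −2.30 to −1.61 over all 18 alternative analyses, and each was called. With all 9 libraries and this scaling, CCL20 was the single member called lower in any comparison. CXCL8 was called in the opposite direction in the same 3 CoCl2 libraries.

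CXCL16 (chr17:4733533-4739928, minus strand) was well covered, with 483 to 1316 counts per library. The control libraries stood at 49.0, 47.4 and 47.9 CPM, the CoCl2 libraries at 38.5, 37.4 and 37.8 CPM and the OD libraries at 58.9, 58.4 and 55.0 CPM. The 3 groups did not overlap, with CoCl2 the lowest and OD the highest. The differences were small: log2 −0.34 for CoCl2 (SE 0.0580, edgeR adjusted p = 2.87e-07) and 0.26 for OD (SE 0.0535, edgeR adjusted p = 2.64e-05) against control. CoCl2 cells had 0.660 of the OD level (log2 −0.60, SE 0.0564, edgeR adjusted p = 4.41e-15). None was called, except CoCl2 against OD by library size alone (−1.15). Of its exonic bases, 6.16% overlap MED11 and ZMYND15 on the opposite strand.

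IL1A, the gene of the alarmin IL-1α, lies at chr2:112773925-112784493 on the minus strand. It had 1, 4 and 1 counts in control, 37, 31 and 41 in CoCl2 and 10, 13 and 11 in OD libraries. The 3 groups did not overlap in CPM, with 0.0538 to 0.196 in control, 2.15 to 2.40 in CoCl2 and 0.454 to 0.586 in OD libraries. IL1A rose 20.3-fold with CoCl2 (log2 4.34, SE 0.400, edgeR adjusted p = 1.91e-15) and 4.84-fold with OD (log2 2.28, SE 0.534, edgeR adjusted p = 0.000161). It was the 1 member called with OD. With 6 control counts in all, the count ratios were 21.5 (95% interval 9.55 to 59.8) and 5.08 (2.11 to 14.8), for counting error only. CoCl2 cells had 4.19 times the OD level (log2 2.07, SE 0.276, edgeR adjusted p = 7.27e-10). Most control counts came from replicate 2. Without that library its fitted log2 values were 5.20 for CoCl2 and 3.14 for OD against control. IL1A passed the filter through 3 CoCl2 and 2 OD libraries. In an edgeR fit of the OD and control libraries alone it did not pass and was not tested. DESeq2 on those 6 libraries gave log2 2.38, with an adjusted p of 0.0142.

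IL18 (chr11:112143253-112164096, minus strand) stood at 21.7, 25.7 and 26.8 CPM in control, 28.1, 32.0 and 26.5 CPM in CoCl2 and 44.6, 45.5 and 47.2 CPM in OD libraries. The OD libraries were above all others, and control and CoCl2 libraries overlapped. Counts were 403 to 1026 per library. With OD the level was 1.85 times that of control (log2 0.89, SE 0.0667, edgeR adjusted p = 1.69e-18). The 95% interval, 0.76 to 1.02, spans the size limit of 1, and none of the 18 alternatives called it, with values of 0.82 to 0.94. The CoCl2 difference from control was 0.21 (SE 0.0734, edgeR adjusted p = 0.00654), and −0.29 by library size alone. By DESeq2 it had an adjusted p of 0.0889 on the 6 libraries compared and 0.0217 on all 9. CoCl2 cells had 0.627 of the OD level (log2 −0.67, SE 0.0671, edgeR adjusted p = 4.74e-14). The IL-1 family members thus differed in pattern: IL1A was highest with CoCl2, and IL18 was highest with OD.

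IL32 (chr16:3065297-3082192, plus strand) and LIF (chr22:30240453-30246759, minus strand) were not called in any comparison. IL32 stood at 115, 104 and 119.9 CPM in control, 91.1, 86.0 and 98.4 CPM in CoCl2 and 113, 103 and 98.2 CPM in OD libraries. The CoCl2 libraries were below all control libraries and overlapped the OD libraries. Its log2 differences were −0.29 for CoCl2 (SE 0.0541, edgeR adjusted p = 2.94e-06) and −0.11 for OD (SE 0.0525, edgeR adjusted p = 0.0686) against control, and −0.19 for CoCl2 against OD (SE 0.0540, edgeR adjusted p = 0.00152). LIF stood at 19.6, 19.6 and 18.3 CPM in control, 18.4, 17.1 and 17.1 CPM in CoCl2 and 20.2, 19.2 and 19.3 CPM in OD libraries. Control libraries overlapped both treated groups. The LIF log2 differences were −0.13 (interval −0.28 to 0.026, edgeR adjusted p = 0.126) with CoCl2 and 0.030 (interval −0.11 to 0.17, edgeR adjusted p = 0.737) with OD. CoCl2 against OD gave −0.16 (SE 0.0770, edgeR adjusted p = 0.0543). Exons of IL32 overlap the small RNA gene RNU1-125P over 4.02% of their length, and those of LIF overlap LIF-AS1 and LIF-AS2 over 4.37%.

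Of the 9 members that passed the filter, 2 rose and 1 fell with CoCl2, against 19.9% and 23.4% of all tested genes. With OD 1 rose and 0 fell, against 9.09% and 4.16%. Of the members below control with OD, 2 had an unadjusted edgeR p under 0.05 (CXCL2 and IL32), and DESeq2 on all 9 libraries likewise called 0 lower. In CoCl2 against OD cells 3 were higher (CXCL8, IL1A and CXCL2) and 1 was lower (CCL20), against 17.5% and 23.8%. CXCL8 and IL1A passed the filter through treated libraries, so these counts describe the members and are not a test of them. At an adjusted p under 0.05 and any fold, 6, 4 and 8 of the 9 members differed in the 3 comparisons, when 83.2%, 65.6% and 83.5% of all genes did. The median log2 difference of the 9 was 0.15 with CoCl2, 0.030 with OD and −0.16 for CoCl2 against OD, and that of all genes was −0.049, −0.010 and −0.054. For a single gene the exact two-sided permutation test over 3 against 3 libraries cannot go below p = 0.1, the value reached by CXCL8, CCL20 and IL1A with CoCl2.

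**Figure D4:**
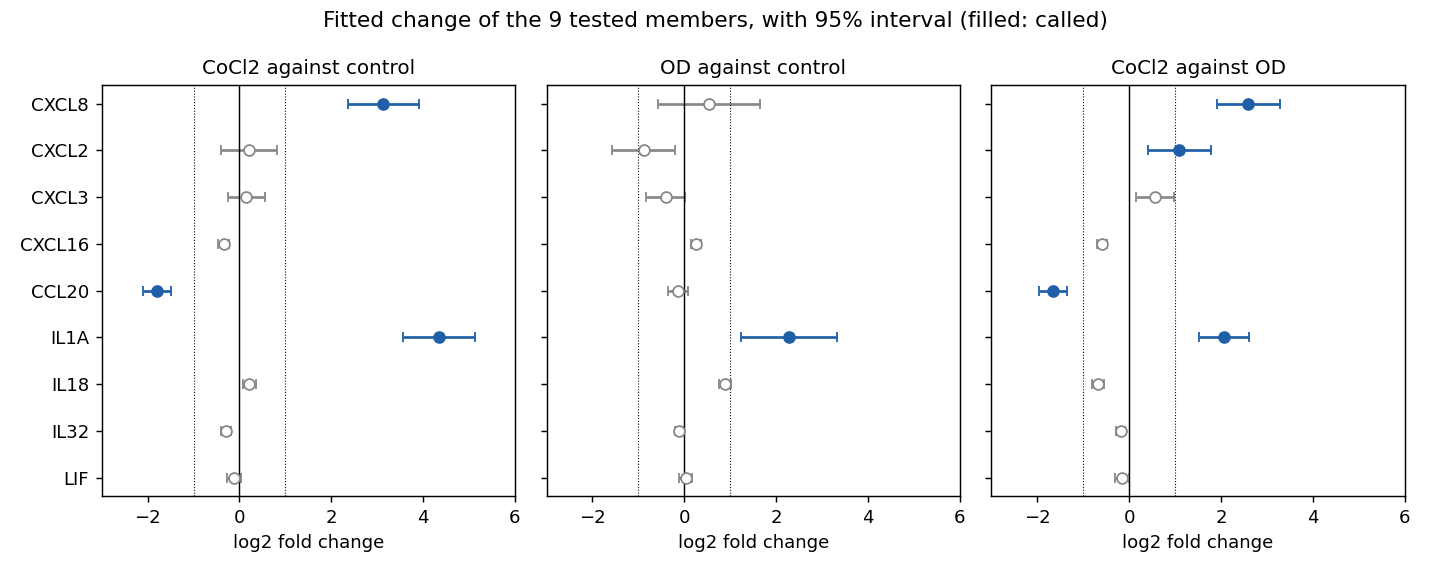
Log2 fold change (points) with its 95% interval (bars) for the 9 tested members in the 3 comparisons, filled blue where called and open grey otherwise, with dotted lines at the size limits of −1 and 1. CXCL8 (3.13) and IL1A (4.34) lie to the right and CCL20 (−1.80) to the left with CoCl2, and IL1A (2.28) alone is filled with OD.

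The genes around the members were described from lists of ligands, receptors and signalling genes. The counts of called genes in them stand against 19.9% higher and 23.4% lower of all tested genes with CoCl2, and 9.09% and 4.16% with OD. Of 36 other chemokines, 33 did not pass the filter, with at most 5.67 counts per library on average, and 14 had no count in any library. The 3 tested were CCL26, CCL28 and XCL1. CCL26 (eotaxin-3, which attracts eosinophils through CCR3) had 1 count in each control library, 292 to 322 in CoCl2 and 4 to 12 in OD libraries. It rose with CoCl2 (log2 8.36, edgeR adjusted p = 1.10e-38) and OD (2.57, edgeR adjusted p = 0.00121), with count ratios of 366 (95% interval 125 to 1780) and 6.58 (1.98 to 34.3). It passed the filter through its CoCl2 libraries, and in an edgeR fit of the OD and control libraries alone it was not tested. CCL28, a mucosal chemokine, rose with OD from 5.43 ± 1.05 to 16.5 ± 0.854 CPM (log2 1.61, edgeR adjusted p = 1.19e-21) and was at 4.50 ± 0.0997 CPM with CoCl2. XCL1 (lymphotactin) fell with CoCl2 (log2 −1.26, edgeR adjusted p = 0.000324), a call lost without control replicate 2 (−0.91). CXCL11, an interferon-induced ligand of CXCR3 named here after its values were seen, did not pass the filter with all 9 libraries. It had 1, 37 and 1 counts over the 3 libraries of control, CoCl2 and OD cells, a CoCl2 to control ratio of 43.7 (95% interval 7.38 to 1773). Without control replicate 1 or 3, CoCl2 replicate 2 or OD replicate 3 it passed and was called higher with CoCl2 (log2 4.56 to 6.86). With CoCl2, the list of other chemokines counted 3 higher by DESeq2 and 4 with no count filter, instead of 1. Among the chemokines tested with all libraries CCL26 was thus, like IL1A, called higher with both agents, and CCL28, like IL18, was at its highest with OD.

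Of 12 receptor genes for the members' products, 6 passed the filter. CXCR1, CXCR2, CCR6, IL18R1, IL18RAP and ACKR1 averaged at most 0.444 counts per library. Of the exonic bases of CCR6, 85.2% overlap another gene on the same strand. IL1R1, the signalling receptor of IL-1α, fell with CoCl2 from 34.3 ± 2.54 to 9.35 ± 0.672 CPM (log2 −1.88, edgeR adjusted p = 1.59e-30), in the cells in which IL1A rose. With OD it was at 29.1 ± 1.03 CPM. IL1RAP, its accessory chain, rose with OD (log2 1.13, edgeR adjusted p = 1.98e-13). The receptor list counted 0 higher and 1 lower with CoCl2 and 1 higher and 0 lower with OD, with medians of −0.21 and 0.055. At an unadjusted edgeR p under 0.05, 2 receptors were higher with CoCl2 and 1 was lower with OD, and DESeq2 called 0 of either. Of 10 other IL-1 family ligands and antagonists, IL36RN and IL18BP passed. IL18BP, the soluble inhibitor of IL-18, rose with CoCl2 from 29.2 ± 1.67 to 60.7 ± 1.83 CPM (log2 1.05, edgeR adjusted p = 7.29e-25) and stood at 55.1 ± 2.52 CPM with OD (log2 0.91, not called). The CoCl2 call lay near the size limit and was not kept by upper-quartile scaling (0.95), by library size alone (0.55) or without a count filter (0.99). Of its exonic bases, 17.6% overlap NUMA1 on the opposite strand. IL36RN, the IL-36 receptor antagonist, rose with OD from 7 to 76 counts over 3 libraries (log2 3.22, edgeR adjusted p = 7.74e-09), a ratio of 9.74 (95% interval 4.50 to 25.0). It passed the filter through its OD libraries alone, and its OD log2 fold change was 3.84 without control replicate 1. IL1B had 0 to 6 counts per library.

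Among 18 genes that process or release IL-1 family ligands and CXCL16, 13 passed, with 4 higher and 2 lower with CoCl2 (median −0.032) and 1 higher with OD (median 0.24). CASP4, an inflammatory caspase that can cleave pro-IL-18, rose with CoCl2 from 23.4 ± 1.81 to 109 ± 4.37 CPM (log2 2.23, edgeR adjusted p = 2.22e-42). NLRP1, an inflammasome sensor, rose from 4 to 69 counts over 3 libraries (log2 4.23, edgeR adjusted p = 3.50e-11; count ratio 20.4, 95% interval 7.61 to 76.9), and by 5.48 without control replicate 3. It passed the filter through its CoCl2 libraries alone. ADAM17, a sheddase of membrane proteins, rose (log2 1.41, edgeR adjusted p = 6.89e-33), with 11.7% of its exonic bases overlapped on the opposite strand. NLRC4 had log2 1.09 (edgeR adjusted p = 0.00542), a call lost without control replicate 3 (0.78) and in DESeq2 on all 9 libraries (adjusted p = 0.0734), and 56.2% of its exonic bases overlap a gene on the opposite strand. GSDMD, which forms the pore for IL-1 release, fell (log2 −1.86, edgeR adjusted p = 1.13e-25), as did NINJ1, which ruptures the membrane of dying cells (−1.20, edgeR adjusted p = 1.48e-19). GSDMB, another gasdermin, rose with OD (log2 1.34, edgeR adjusted p = 7.59e-19). CASP1, the classic IL-18 convertase, had 0 to 5 counts per library, and PYCARD, the inflammasome adaptor, had 0 to 1, with 59.7% of its exonic bases overlapped on the opposite strand. ADAM10, the main sheddase of CXCL16, was at 126 ± 4.45, 123 ± 4.51 and 166 ± 4.95 CPM in control, CoCl2 and OD cells and was not called against control.

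Of 14 adaptors of the IL-1 receptor, 13 passed. With CoCl2 the ubiquitin ligases PELI2 (log2 2.16, edgeR adjusted p = 1.65e-19) and TRAF6 (1.73, edgeR adjusted p = 4.94e-35) rose, and the kinase IRAK1 (−1.83, edgeR adjusted p = 9.40e-43) and the adaptor MYD88 (−1.19, edgeR adjusted p = 7.53e-25) fell. With all 9 libraries, none of the 13 was called with OD by the main edgeR fit or by DESeq2. At an unadjusted edgeR p under 0.05, 5 were higher and 5 lower with OD. The medians were 0.57 with CoCl2 and −0.028 with OD. Without control replicate 2 or CoCl2 replicate 3, 4 instead of 2 adaptors were called lower with CoCl2. PELI2 was called higher with OD without control replicate 1 (1.07) or OD replicate 1 (1.05). With all 9 libraries it was also called by edgeR with upper-quartile scaling (1.01) or library size alone (1.02). The same held when at least 10 counts were asked of every library (1.004). Of 7 gp130 cytokines listed beside LIF, 4 passed, with 3 higher and 1 lower with CoCl2 (median 2.02). With OD the main edgeR fit and DESeq2 called 0 of them (median 0.74), although 3 were higher and 1 lower at an unadjusted edgeR p under 0.05. CTF1 was called higher with OD without control replicate 2 (1.09) or OD replicate 1 (1.15). It was also called with upper-quartile scaling (1.01) or library size alone (1.02). CLCF1 (log2 2.31, edgeR adjusted p = 2.96e-32), IL11 (2.25, edgeR adjusted p = 4.01e-11) and CNTF (1.79, edgeR adjusted p = 1.74e-14) rose with CoCl2, and CTF1 fell (−1.28, edgeR adjusted p = 0.00111). Of the exonic bases of CNTF, 38.5% overlap the readthrough gene ZFP91-CNTF. LIF, in contrast, was not called in either comparison.

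Of 15 other epithelial cytokines 4 passed, with medians of −0.016 with CoCl2 and 0.59 with OD. CSF1, a macrophage growth factor, fell with CoCl2 (log2 −1.25, edgeR adjusted p = 1.74e-06), and IL23A, a subunit of IL-23, rose with OD (1.81, edgeR adjusted p = 3.04e-07). IL23A had 7 to 45 counts per library and reached the filter's level in 1 control, 2 CoCl2 and 3 OD libraries. When at least 10 counts were asked of every library it was not tested. With CoCl2 its log2 difference was 0.88 (edgeR adjusted p = 0.0223, not called). It was called higher with CoCl2 without control replicate 1 (1.21) or CoCl2 replicate 1 (1.14). IL15, named after its values were seen, did not pass the filter with all 9 libraries, with 0 to 16 counts per library. It had 4, 29 and 36 counts over the 3 libraries of control, CoCl2 and OD cells, ratios to control of 8.57 (95% interval 3.01 to 33.5) and 8.07 (2.89 to 31.2). In 7 of the fits that left out 1 library it passed and was called higher with both agents, at log2 2.47 to 3.37 with CoCl2 and 2.40 to 3.30 with OD. DESeq2 counted 2 to 3 genes of this list higher with CoCl2 and 5 were with no count filter, instead of 0, and both counted 3 higher with OD instead of 1. Proteins that bind AU-rich elements, or act on those that do, set the stability of many chemokine mRNAs, CXCL8 among them, some shortening their life (ZFP36) and others lengthening it (ELAVL1). All 13 genes listed for this control were tested, with 5 higher and 0 lower with CoCl2 and none called with OD (medians 0.47 and 0.092). At an unadjusted edgeR p under 0.05, 5 were lower with CoCl2, and 7 were higher and 5 lower with OD, and DESeq2 called none of these. ZFP36 (tristetraprolin) rose with CoCl2 from 14.8 ± 1.01 to 185 ± 13.98 CPM (log2 3.64, edgeR adjusted p = 4.44e-50). ZC3H12A (regnase-1, 2.30), RC3H1 (roquin-1, 2.03) and TIAL1 (1.43) also rose, with edgeR adjusted p of 3.11e-36, 1.82e-37 and 1.98e-38. By library size alone the list counted 3 higher and 3 lower with CoCl2. ZFP36 was called higher with OD without control replicate 1 (1.05) or OD replicate 3 (1.05). With all 9 libraries it was also called by edgeR with upper-quartile scaling (1.01) or library size alone (1.02). The same held when at least 10 counts were asked of every library (1.01).

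**Figure D5:**
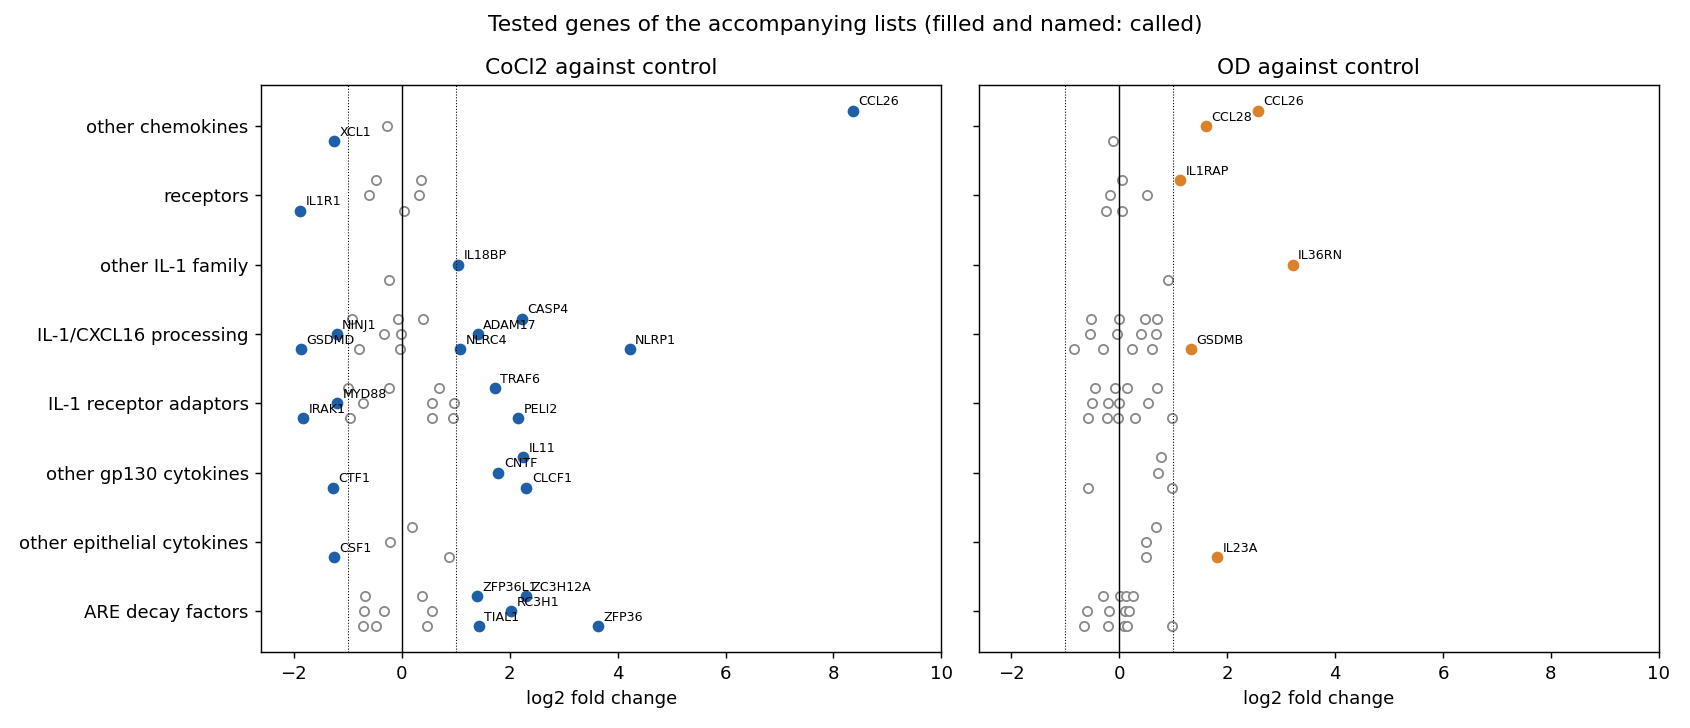
Log2 fold change of the tested genes of 8 lists, with CoCl2 (left) and OD (right) against control, filled and named where called and open otherwise, dotted lines at −1 and 1, and points spread in height within a list for legibility. CCL26 lies farthest right in the left panel at 8.36, IL1R1 (−1.88) is the called receptor there, and IL36RN is farthest right with OD at 3.22.

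The genes whose 9-library pattern was most like that of each member were found among all genes of at least 1 CPM on average, by the root mean square difference of log2 CPM after centring on the control mean. CXCL8 was closest to BRF2 (0.282) and CLIP4 (0.300), and IL1A to RIT1 (0.255) and B3GNT4 (0.301). CCL20 was closest to RAPGEFL1 (0.122) and MSI1 (0.133), and CXCL16 to FN3KRP (0.0353) and CLCN5 (0.0427). IL18 was closest to NOD1 (0.0699), an intracellular sensor of bacterial peptidoglycan, and then AC122688.3 (0.0920). CXCL2 was nearest to SPATA5L1 (0.107) and SLC25A17 (0.118), and CXCL3 to PROSER2-AS1 (0.142) and RAD50 (0.143). IL32 was nearest to CIZ1 (0.0469) and PITPNA (0.0533), and LIF to TSC22D1 (0.0308) and HDHD5 (0.0414). The differences from the nearest genes were largest for CXCL8 and IL1A, the tested members with the fewest control counts. CXCL8, CXCL1, CXCL2 and IL1A averaged under 1 CPM over all libraries, so they could not be found as neighbours. None of the other members was among the genes named here.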

How the data were processed

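RNA of 9 uCaco-2 libraries (3 control, 3 CoCl2, 3 OD) was sequenced by the authors as single 75-nucleotide reads from stranded mRNA libraries. The reads were checked with FastQC 0.11.9, trimmed with cutadapt 2.10 and aligned with STAR 2.7.5b to GRCh38.p13 with GENCODE release 34, as the study's methods and the submitters' processing notes give it. The deposited table holds raw counts per gene symbol, not normalised. The counting tool, its strand setting and its use of reads with several alignments were not given in the sources used here. Gene positions and exonic lengths came from GENCODE release 44 on GRCh38.

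Counts were filtered with filterByExpr (at least 10 counts at the median library size in 3 libraries), scaled by TMM and tested with the robust quasi-likelihood test of edgeR 4.0.16 in R 4.3.3 on all 9 libraries, with Benjamini-Hochberg adjustment. DESeq2 1.42.0, other scalings and filters, a replicate block and leaving out each library were the 18 alternatives. Both tools were run on simulated data in which few genes changed, evenly in both directions. That run did not cover a broad shift like the one with CoCl2. Standard errors were recovered from the F statistic, and intervals are ± 1.96 SE or exact intervals of count ratios. Pairs of libraries within a group differed beyond sampling noise (chi-square per degree of freedom 1.82 to 3.32). This value cannot tell separate cultures from separate preparations of 1 culture. The labels call the libraries biological replicates, and each was counted as a replicate of its own. The permutation tests and patterns used log2(CPM + 0.1).

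The replicate numbers are shared between groups. Deviations of same-numbered libraries correlated at −0.018 to 0.067, those of other pairs at −0.069 to 0.062, so the numbers were not taken as pairs. The members and lists were chosen with earlier results of these data known. All 10 members were named, and from each list the called genes, at most 4 per comparison by size of change, together with the 2 genes nearest in pattern to each member and genes that overlap a member. One gene of a list is not reported here.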

Additional observations from a re-analysis of the deposited data

How the results depend on the processing

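Of 475 values of single members under the alternatives, 464 kept their direction and their side of the limits. Scaling by library size alone turned the CoCl2 against control log2 differences of CXCL2 (−0.29), CXCL3 (−0.35) and IL18 (−0.29). Leaving out 1 library gave −0.048 (without CoCl2 replicate 3) to 0.32 for CXCL3 with CoCl2, and −0.0032 (without control replicate 3) to 0.060 for LIF with OD. The count of members called higher was 0 in all 3 comparisons when at least 10 counts were asked of every library, since CXCL8, CXCL2 and IL1A were then not tested. It was also 0 for OD against control in edgeR on the 6 libraries compared, where IL1A was not tested. By library size alone 3 members instead of 1 were lower in CoCl2 than in OD cells, CXCL16 (−1.15) and IL18 (−1.22) being added. Leaving out 1 library gave 0 to 1 members lower with OD, CXCL2 being added without control replicate 3. With CXCL2 lost, 2 instead of 3 members were higher in CoCl2 than in OD cells by DESeq2 on 6 libraries, upper-quartile scaling and library size alone. The other member counts, leave-one-out counts included, stayed as given. The replicate block changed no call of a member. With the block 6901, 2115 and 6568 genes were called in the 3 comparisons, against 6891, 2113 and 6580. Of 864 counts of list genes, 102 moved by more than 1.5 times. By library size alone, with CoCl2, 2 processing genes were higher and 4 lower, 5 adaptors and 2 receptors were lower. IL18BP was not called by library size alone, with upper-quartile scaling or without a count filter. Values that a filter removed (CXCL8, CXCL2 and IL1A under the 10-count filter, CXCL8 and IL1A for OD in edgeR on 6 libraries) have no entry. Depth limits CXCL8, CXCL1, CXCL2 and IL1A, with 1 to 41 counts per library.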
